A study of Mus musculus with 9 samples.

Results

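A set of 10 transcription factor genes of the immediate early response was followed in quiescent mouse embryonic fibroblasts (MEFs), which are connective tissue cells grown from mouse embryos. They are the Fos genes Fos, Fosb, Fosl1 and Fosl2, the Jun genes Jun, Junb and Jund, and Egr1, Atf3 and Myc. They were found by their gene symbols and are 10 of 19937 genes with a probe set of their own on the array. Each has 1 probe set with a single gene symbol, and all 10 passed a filter on dim genes, which kept 11962 genes with a mean at or above a log2 value of 7.24.

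RNA was measured on 9 Affymetrix arrays, 3 for each of 3 genotypes of Cdkn1b, the gene of the cell cycle inhibitor p27. WT cells are wild type, CK cells are labelled p27CK and KO cells are labelled p27KO. All 9 samples had grown in 10% serum and were then kept without serum for 72 h, so every value below is a level in the starved state and none is a response to serum. In published work p27CK is a p27 that cannot bind cyclins or their kinases. The labels give only its name, and the extraction protocol of all 9 samples speaks of wild-type or delta51 mice. Nothing in the labels ties the 3 arrays of a group to different embryos or dishes, so the p-values rest on a spread between arrays that may be technical. Effects of the genotype and of the cell preparation cannot be told apart.

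Immediate early genes are switched on within minutes of serum, growth factors or stress by transcription factors already present in the cell, and their RNAs are short-lived. Fos and Jun proteins pair through leucine zippers and form the factor AP-1, which binds DNA at sites of the TGACTCA kind. Jun proteins can pair with each other, while Fos proteins need a partner. Egr1 is a zinc finger factor of GC-rich sites, Atf3 is a stress-induced factor of the ATF/CREB family that also pairs with Jun proteins, and Myc drives genes of growth and ribosome production. In published work these genes are mostly low in fibroblasts without serum, apart from JunD, which is known to be present in resting cells. Among the WT readings here Jund was not the highest. Its mean of 9.79 lay under those of Jun (11.22), Myc (10.83), Egr1 (10.20), Fosl2 (10.16) and Fosl1 (9.96). It lay above those of Fos, Fosb, Junb and Atf3. Readings of different genes also depend on their probes, so this order does not rank the RNAs, and protein was not measured.

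RefSeq promoter sequences (GRCm38.p6) were at hand for 7 of the 10 genes, and the bases before the gene start are shown for the 5 whose windows hold a searched motif. They come from chr1:191183334-191183583 (- strand) for Atf3, chr5:32136222-32136471 (+ strand) for Fosl2, chr7:19310046-19310295 (- strand) for Fosb, chr4:95052223-95052472 (- strand) for Jun and chr12:85473640-85473889 (+ strand) for Fos. Each sequence runs 5′ to 3′ along the gene for 250 bases and ends at the base before its start. Capitals mark the motif, and all other bases are in lower case.
Atf3: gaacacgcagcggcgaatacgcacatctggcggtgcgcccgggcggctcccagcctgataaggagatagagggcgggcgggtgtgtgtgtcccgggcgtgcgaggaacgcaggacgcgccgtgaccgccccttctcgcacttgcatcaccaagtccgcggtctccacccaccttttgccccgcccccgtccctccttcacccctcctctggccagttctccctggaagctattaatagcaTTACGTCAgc
Fosl2: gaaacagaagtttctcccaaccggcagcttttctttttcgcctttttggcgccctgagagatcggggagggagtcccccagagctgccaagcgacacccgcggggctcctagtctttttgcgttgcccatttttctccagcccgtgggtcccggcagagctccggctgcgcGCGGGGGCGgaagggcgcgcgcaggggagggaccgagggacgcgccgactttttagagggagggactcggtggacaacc
Fosb: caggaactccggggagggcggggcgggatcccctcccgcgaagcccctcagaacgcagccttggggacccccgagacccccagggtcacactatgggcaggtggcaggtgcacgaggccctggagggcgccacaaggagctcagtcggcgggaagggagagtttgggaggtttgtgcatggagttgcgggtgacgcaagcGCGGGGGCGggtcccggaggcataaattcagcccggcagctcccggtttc
Jun: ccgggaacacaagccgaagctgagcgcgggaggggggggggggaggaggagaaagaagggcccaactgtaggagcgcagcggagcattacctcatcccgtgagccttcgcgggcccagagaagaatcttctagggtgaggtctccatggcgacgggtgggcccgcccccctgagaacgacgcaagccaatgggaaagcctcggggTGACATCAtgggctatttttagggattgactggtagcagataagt
Fos: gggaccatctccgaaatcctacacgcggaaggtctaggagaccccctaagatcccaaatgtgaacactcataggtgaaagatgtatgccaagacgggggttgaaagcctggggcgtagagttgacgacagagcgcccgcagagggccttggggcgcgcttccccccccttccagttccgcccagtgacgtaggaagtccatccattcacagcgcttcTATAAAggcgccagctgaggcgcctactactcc

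The Atf3 window ends with TTACGTCA, a variant of the site of ATF and CREB factors, which lies 10 to 3 bases before the start. Over 32851 windows of this length from all genes 0.447% hold it on either strand. The Jun window holds TGACATCA, the variant AP-1 site known from this promoter, 45 to 38 bases before the start, and 2.93% of all windows hold it. Fosl2 and Fosb both hold GCGGGGGCG, a site of the Egr factors, at 79 to 71 and 50 to 42 bases before the start, against 2.57% of all windows. The Fos window holds the TATA box TATAAA at 33 to 28 bases before the start, and 12.4% of all windows hold these letters at any place. No window of the 7 genes held TGACGTCA (1.55% of all), TGACTCA (4.46%), CACGTG (6.02%), GCGTGGGCG (0.536%) or a CArG box of the serum response factor (1.47%). Only the 250 bases before the start were searched, so sites farther upstream would be missed. Fosl1, Egr1 and Myc had no window. No marked motif overlaps another of the searched motifs in these windows, and a match is a description of the letters only.

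The label of the KO cells was checked first on the targeted gene. The log2 level of Cdkn1b was 11.46 ± 0.04 for WT, 11.10 ± 0.09 for CK and 7.38 ± 0.11 for KO (SD, n = 3). Array medians lay between 7.29 and 7.40, and correlations across probe sets were 0.995 to 0.998 within a genotype and 0.964 to 0.975 between genotypes. All 11 fibroblast markers passed the filter, with a mean log2 level per array of 12.67 to 12.78 in WT, 12.45 to 12.57 in CK and 11.82 to 11.86 in KO. Thy1, a fibroblast surface marker, read 11.73 for WT, 11.69 for CK and 7.14 for KO. The mean level of the 8 cartilage markers differed between the genotypes, at 8.63 to 8.74 per array in WT, 7.72 to 7.78 in CK and 10.61 to 11.01 in KO. Each of the 8 read higher in KO than in WT. From WT to CK, Cnmd went from 13.33 to 7.30, and Sox9 and Col2a1 were also lower. Matn1, Comp, Col9a1 and Col11a2 hardly differed there, and Acan was slightly higher (6.42 and 6.64, under the filter value). Matn1 (6.42 and 6.38) and Comp (7.16 and 7.11) also lay under it, and Col9a1 (7.25 and 7.20) lay near it. Such readings are not shown to be above background. The part of the cartilage markers in the results below was not tested. Of 7 macrophage and 5 endothelial markers, 5 and 4 lay under 7.24 in every genotype, Ptprc, Csf1r and Pecam1 among them. The others were measured and differed between the genotypes: the macrophage genes Cd68 and Lyz2 went opposite ways, Cd68 from 10.64 in WT to 8.59 in CK and 7.99 in KO and Lyz2 from 6.90 to 7.59 and 8.83. The endothelial gene Tek was at 8.77 in WT, against 6.51 in CK and 6.80 in KO. Their part in the results was not tested. Of 6 muscle markers 5 lay under 7.24 in every genotype, as did 3 of 6 epithelial markers and 3 of the 4 neural markers measured. The remaining neural marker, Nes, an intermediate filament gene of progenitor cells, read 9.50 in CK. Nes lay under the filter value in both WT (6.04) and KO. In bulk samples fewer cells of a type and less RNA per cell cannot be told apart.

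**Figure D1:**
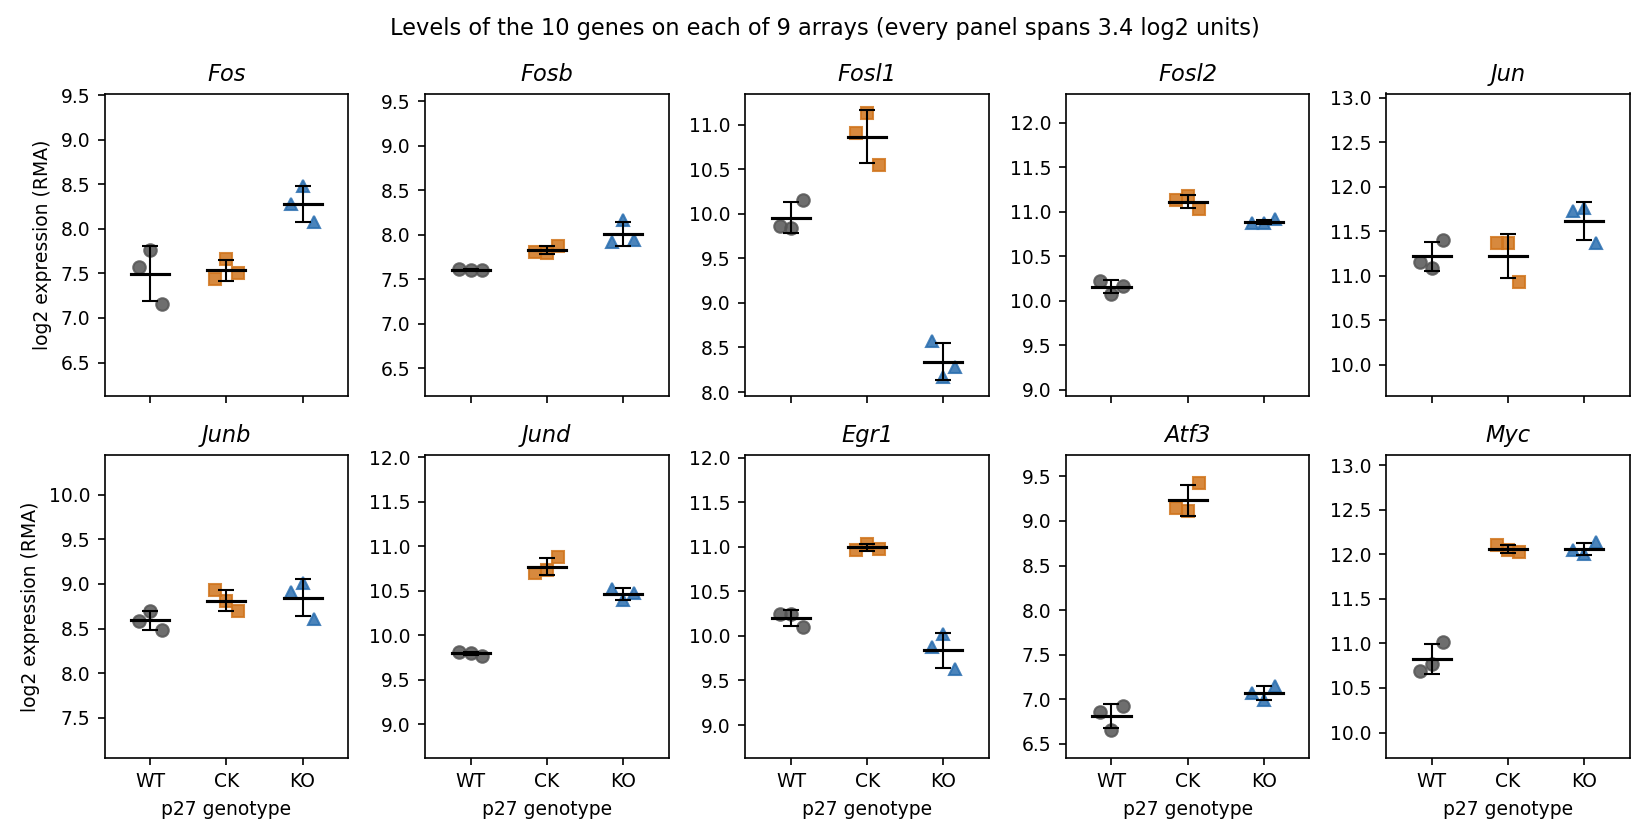
Log2 expression (y axis) of the 10 genes on the 3 arrays of each genotype (x axis), 1 point per array, with the mean and SD of 3 arrays in black. Fosl1 is lowest in KO (8.17 to 8.57) and highest in CK (10.55 to 11.13), Atf3 is high in CK alone (9.11 to 9.43), and Myc is higher in CK and KO than on any WT array.

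The genes did not move as a block. Against WT, 5 of the 10 rose in both mutants (Fosb, Fosl2, Jund, Atf3 and Myc), 2 fell in KO and rose in CK (Fosl1 and Egr1), 2 rose in KO and did not pass the test in CK (Fos and Jun), and Junb passed in neither. The KO call of Atf3 is between levels not shown to be above background, as given below. Of all 11962 genes tested, 13.2% rose in both mutants, 5.24% fell in KO and rose in CK, 7.60% rose in KO without a call in CK, and 24.3% passed in neither. Both comparisons use the same WT arrays. With p adjusted over all genes, limma called 9 of the 10 between KO and WT, where it called 51.2% of all genes. Between CK and WT it called 7 of the 10, against 62.9% of all genes, and between CK and KO 8 of the 10, against 62.2%. The share in KO versus WT lies above its background and the shares in the other comparisons are nearer to theirs. Of the 9 calls in KO versus WT, 2 (Jun and Atf3) were lost when single arrays were left out, as given below.

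The size and the direction of the calls differed between the mutants. In KO 7 of the 10 rose and 2 fell, where 26.6% of all genes rose and 24.6% fell, and the median difference over the 10 was 0.40 against 0.01 over all genes tested. In CK 7 rose and 0 fell, where 30.7% of all genes rose and 32.1% fell, with a median of 0.85 against -0.01. Between the mutants 5 were higher in CK and 3 lower, where 29.5% and 32.7% of all genes were, with a median of 0.11 against -0.02. At least 2-fold differences among the calls were fewer: 2 of the 10 in KO versus WT (8.77% of all genes), 2 in CK versus WT (10.8%) and 3 in CK versus KO (12.4%).

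Arrays of 2 genotypes did not overlap for 8 of the 10 genes in each comparison, where 60.9% of all genes did not overlap in KO versus WT, 67.3% in CK versus WT and 67.5% in CK versus KO. In KO 6 lay above and 2 below WT (32.0% and 28.9% of all genes), and in CK 8 lay above and 0 below WT (33.0% and 34.3%). Between the mutants 5 lay higher and 3 lower in CK (31.7% and 35.8%). With 3 arrays against 3 the exact two-sided permutation test cannot go below 0.1, and it gave 0.1 for each comparison without overlap. The calls rest therefore on limma, which borrows the spread from all genes.

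**Figure D2:**
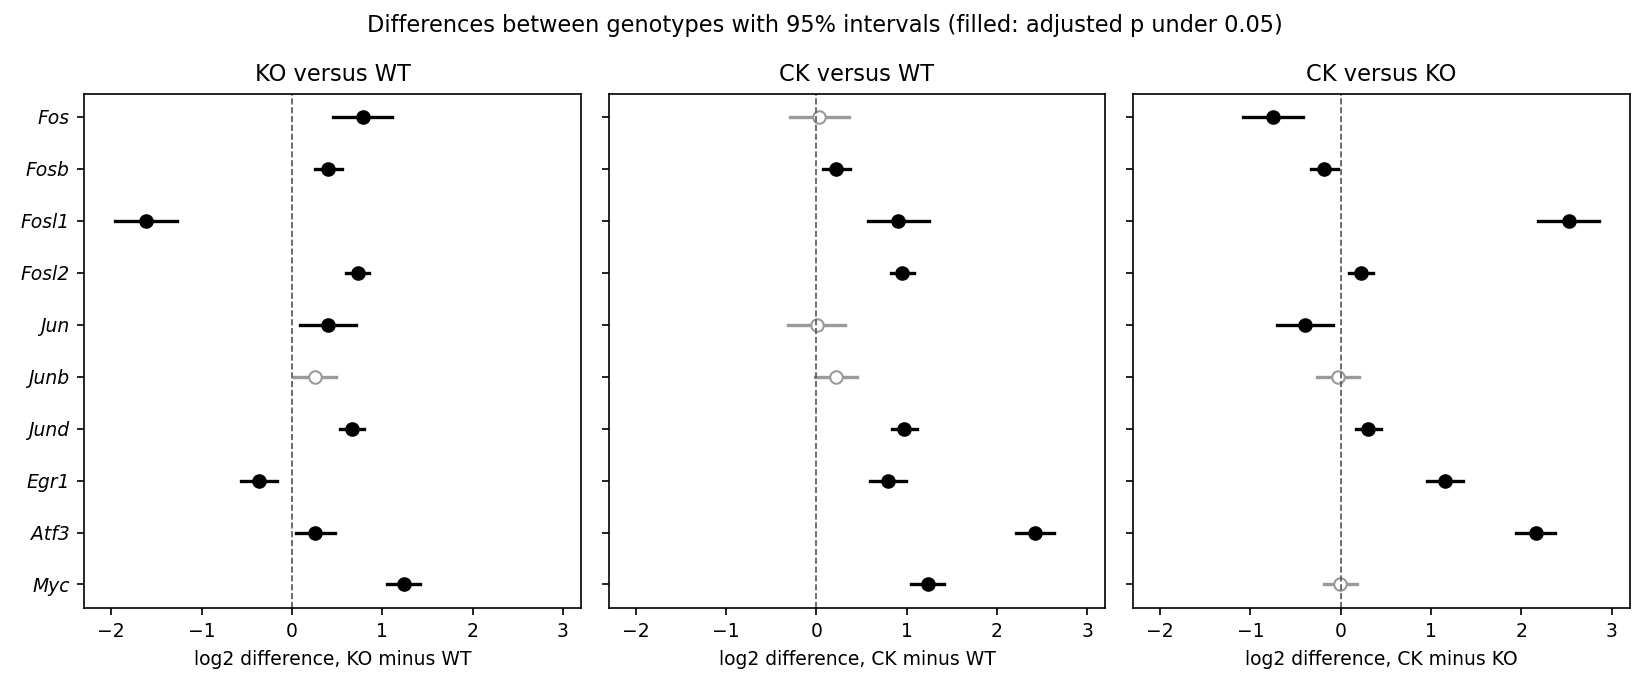
Log2 difference between genotypes (x axis) for each of the 10 genes (y axis) in 3 comparisons, with 95% intervals from limma. Filled points passed an adjusted p of 0.05: 9 in KO versus WT, 7 in CK versus WT and 8 in CK versus KO, with Fosl1 at -1.61, 0.91 and 2.52.

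Fosl1, which encodes Fra-1, a Fos protein that accumulates late after stimulation and is itself an AP-1 target, differed most between the mutants. Its probe set, 10460585 (chromosome 19), read 9.86, 9.85 and 10.16 on the WT arrays, 10.91, 11.13 and 10.55 on the CK arrays and 8.57, 8.17 and 8.29 on the KO arrays. Every CK array lay above every WT array, and every KO array below them. In KO the level was 3.06-fold lower than in WT (difference of -1.61 with SE 0.15, limma adjusted p = 7.85e-06), and CK was 1.88-fold above WT (0.91, limma adjusted p = 0.000395). Between the mutants the difference was 5.75-fold (2.52, 95% interval 2.18 to 2.86, limma adjusted p = 1.61e-07), and 2.27% of all genes tested differed by as much in either direction.

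Fosl2 encodes Fra-2, the closest relative of Fra-1, and did not follow it in KO. Probe set 10520862 (chromosome 5) gave 10.23, 10.08 and 10.17 in WT, 11.13, 11.17 and 11.03 in CK and 10.88, 10.88 and 10.91 in KO. All 6 mutant arrays lay above all WT arrays, and all CK arrays above all KO arrays. The rise over WT was 1.66-fold in KO (log2 difference 0.73, SE 0.06, limma adjusted p = 2.00e-06) and 1.94-fold in CK (0.95, limma adjusted p = 1.94e-07). CK exceeded KO by 0.22 (limma adjusted p = 0.0062).

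Fos, the c-Fos gene and the prototype of the class, was higher in KO alone. Probe set 10397346 (chromosome 12) read 7.57, 7.76 and 7.16 in WT, 7.44, 7.66 and 7.50 in CK and 8.28, 8.48 and 8.08 in KO. The KO arrays lay above all others, while WT and CK overlapped. KO exceeded WT by 0.78 (SE 0.15, 1.72-fold, limma adjusted p = 0.00124) and CK by 0.75 (limma adjusted p = 0.00121 for CK minus KO). For CK minus WT the difference was 0.04, with a 95% interval from -0.29 to 0.36 (limma adjusted p = 0.854). The WT and CK levels are near the filter value of 7.24 and are not shown to be above background.

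Fosb, whose product is induced together with c-Fos, showed small differences at a low level. Probe set 10560481 (chromosome 7) read 7.61, 7.60 and 7.60 in WT, 7.81, 7.80 and 7.88 in CK and 7.92, 8.17 and 7.94 in KO. The 3 genotypes stood in the order WT, CK and KO without overlap, and the WT arrays lay closer together (SD 0.01) than the median gene tested (SD 0.07 in WT). KO exceeded WT by 0.40 (SE 0.07, limma adjusted p = 0.000581) and CK exceeded WT by 0.22 (limma adjusted p = 0.016). That second call was lost without CK replicate 3 (difference 0.20, limma adjusted p = 0.0515). CK minus KO was -0.18 (limma adjusted p = 0.0378), and it lost its call under 9 of 18 other settings, among them the replicate block (limma adjusted p = 0.0535) and leaving out WT replicate 1 (0.0529), WT replicate 2 (0.0532), CK replicate 1 (0.0906), CK replicate 2 (0.0941) or KO replicate 2 (difference -0.10, limma adjusted p = 0.147).

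Jund rose in both mutants, and its pattern was that of Fosl2. JunD is the Jun protein that persists in resting fibroblasts and is known to slow their growth. Probe set 10572456 (chromosome 8) gave 9.81, 9.80 and 9.77 in WT, 10.70, 10.73 and 10.88 in CK and 10.52, 10.39 and 10.48 in KO. No genotype overlapped another. Jund exceeded WT by 0.98 in CK (SE 0.06, 1.97-fold, limma adjusted p = 2.28e-07) and by 0.67 in KO (1.59-fold, limma adjusted p = 5.58e-06). CK exceeded KO by 0.31 (limma adjusted p = 0.00114).

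Jun, the c-Jun gene, whose protein forms the most common partner of Fos proteins, differed little. Probe set 10514466 (chromosome 4) read 11.16, 11.09 and 11.41 in WT, 11.37, 11.36 and 10.94 in CK and 11.73, 11.76 and 11.37 in KO. KO replicate 3 fell within the WT range, so KO and WT overlapped (exact two-sided permutation p = 0.2). KO minus WT was 0.40 (SE 0.14, limma adjusted p = 0.0359), and the call was lost without WT replicate 1 (limma adjusted p = 0.104), WT replicate 2 (0.119), KO replicate 1 (0.114) or KO replicate 2 (0.120). CK minus KO was -0.40 (limma adjusted p = 0.0312), lost without CK replicate 3 (difference -0.25, limma adjusted p = 0.119), KO replicate 1 (0.0997) or KO replicate 2 (0.106). For CK minus WT the 95% interval ran from -0.31 to 0.32 around 0.00 (limma adjusted p = 0.982).

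Junb, which encodes a Jun protein often opposed to c-Jun in growth control, did not pass any of the 3 tests. Probe set 10580282 (chromosome 8) read 8.59, 8.69 and 8.49 in WT, 8.94, 8.80 and 8.70 in CK and 8.91, 9.01 and 8.61 in KO. The CK arrays lay just above the WT arrays, while KO replicate 3 lay within the WT range. KO minus WT was 0.25 (95% interval 0.02 to 0.49, limma adjusted p = 0.066) and CK minus WT was 0.22 (-0.01 to 0.46, limma adjusted p = 0.0862). Each of these passed under 4 of 18 other settings. Without KO replicate 3 they were 0.37 (limma adjusted p = 0.00534) and 0.22 (limma adjusted p = 0.028), and with a replicate block 0.25 (limma adjusted p = 0.018) and 0.22 (limma adjusted p = 0.0252).

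KO replicate 3 was the lowest of the KO arrays for Fos (8.08), Jun (11.37), Junb (8.61) and Egr1 (9.63). It was the highest of them for Fosl2 (10.91), Atf3 (7.15) and Myc (12.14). CK replicate 3 was the lowest CK array for Fosl1 (10.55), Fosl2 (11.03), Jun (10.94), Junb (8.70) and Myc (12.03), and the highest for Jund (10.88), Fosb (7.88) and Atf3 (9.43). Neither array was thus low for all 10 genes.

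Egr1 encodes the zinc finger factor Egr-1, which is induced by ERK signalling through serum response elements. Probe set 10454782 read 10.25, 10.25 and 10.10 in WT, 10.97, 11.03 and 10.98 in CK and 9.87, 10.02 and 9.63 in KO. As with Fosl1, CK was highest and KO lowest, and no genotype overlapped another. CK exceeded WT by 0.79 (SE 0.09, 1.73-fold, limma adjusted p = 2.28e-05), while KO minus WT was -0.36 (limma adjusted p = 0.00655). Between CK and KO the difference was 2.23-fold (1.15, 95% interval 0.95 to 1.36, limma adjusted p = 1.19e-06).

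Atf3 gave the largest difference from WT of the 10 genes, and it did so in CK. Probe set 10361091 (chromosome 1) read 6.86, 6.65 and 6.92 in WT, 9.15, 9.11 and 9.43 in CK and 7.07, 6.99 and 7.15 in KO. The CK mean stood more than 2 log2 units above both other means, and the WT and KO arrays lay under the filter value of 7.24 and are not shown to be above background. Atf3 passed the filter only through CK, and its fold is the ratio of measured intensities, background included. CK exceeded WT 5.35-fold (2.42, SE 0.10, limma adjusted p = 8.19e-09) and KO 4.47-fold (2.16, limma adjusted p = 1.51e-08). The KO arrays also lay above the WT arrays, by 0.26 (limma adjusted p = 0.0438). That call passed under 11 of 18 other settings and was lost without WT replicate 1 (limma adjusted p = 0.0709), WT replicate 2 (difference 0.18, limma adjusted p = 0.163), CK replicate 1 (0.0501), KO replicate 1 (0.0965) or KO replicate 3 (0.121).

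Myc, the c-Myc gene, rose in both mutants, to a mean of 12.06 in each. Probe set 10424400 (chromosome 15) read 10.69, 10.77 and 11.02 in WT, 12.11, 12.05 and 12.03 in CK and 12.05, 12.01 and 12.14 in KO. The mutant arrays lay more than 1 log2 unit above the WT mean of 10.83 and overlapped each other. The rise over WT was 2.36-fold in KO (1.24, SE 0.08, limma adjusted p = 4.16e-07) and 2.35-fold in CK (1.23, limma adjusted p = 3.48e-07). For CK minus KO the difference was 0.00, with a 95% interval from -0.18 to 0.18 (limma adjusted p = 0.971). A rise of this size was seen in 2.30% of all genes tested in KO and in 3.40% in CK.

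The other genes of the same pathways were read from 9 lists, each beside the share of all genes called: 51.2% in KO versus WT (26.6% higher, 24.6% lower), 62.9% in CK versus WT (30.7% and 32.1%) and 62.2% in CK versus KO (29.5% and 32.7%). Genes named in each list are among up to 2 with the largest difference in each direction among those called. Levels under 7.24 are not shown to be above background, which touches Dusp4, Mmp3, Mmp13 and Mmp10 in KO, Map3k5 in CK, Batf in both mutants and Slc7a11 in WT and KO. Their differences are those of the measured values and do not give the size of the change in RNA.

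Other immediate early genes were called in both directions in each mutant. Of 43 tested, 14 rose and 17 fell in KO (72.1% called, median -0.09), while 23 rose and 9 fell in CK (74.4%, median 0.26). In KO the growth arrest gene Gadd45g rose by 1.69 and the antiproliferative gene Btg2 by 1.62, while the activin inhibitor Fst fell by 1.94 and Gadd45a fell by 1.83. In CK Ptgs2, the inducible cyclooxygenase, rose by 1.99 and the ERK phosphatase Dusp4 by 1.22, while Fst fell by 3.64 and the matricellular gene Ccn2 fell by 1.59. Between the mutants 22 were higher and 11 lower in CK (76.7% against 62.2% of all genes). CK minus KO was 3.15 for Ptgs2 and 2.15 for the TGF-beta induced factor Klf10, and -2.30 for Ccn2 and -1.70 for Fst.

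Factors that pair with AP-1 or share its leucine zipper class were called about as often as all genes. Of 25 tested, 5 rose and 9 fell in KO (56.0% called, median -0.14), and 12 rose and 5 fell in CK (68.0%, median 0.13). The calls between the mutants went mostly one way. Of the same 25 genes 13 were higher and 2 lower in CK than in KO (median 0.18), where 29.5% and 32.7% of all genes were. Maf rose in both, by 1.19 in KO and 1.00 in CK, and Batf, whose product blocks AP-1, passed as lower in both, with readings of 7.19 in KO and 7.10 in CK, under the filter value, against 8.21 in WT. Ddit3, the stress factor CHOP, rose by 1.19 in CK, where Cebpd fell by 1.26, and in KO Nfe2l2 fell by 1.01 and Mafk rose by 0.41.

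The kinases and factors that feed these genes went both ways. Of 38 listed genes 29 had a probe set of their own and all 29 were tested: 9 rose and 6 fell in KO (51.7% called, median 0.07), and 9 rose and 11 fell in CK (69.0%, median -0.07). Elk1, an ETS factor that acts with the serum response factor on Fos and Egr1, rose in both, by 0.66 in KO and 0.97 in CK. The ERK kinase gene Map2k1 rose by 0.95 in CK, where the receptor gene Egfr fell by 1.23. The stress kinase gene Map3k5 rose by 1.41 in KO and fell by 1.35 in CK. In KO Mapk11, a p38 kinase gene, fell by 1.40 and the PDGF receptor gene Pdgfra fell by 1.32. The share called was largest between the mutants, at 86.2% against 62.2% of all genes, with 10 higher and 15 lower in CK.

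Genes for the turnover of AP-1 and Myc proteins and for the partners of Myc went both ways, with differences under 1 log2 unit among those named. Of 12 turnover genes 2 rose and 1 fell in KO (25.0% called), and 4 rose and 3 fell in CK (58.3%). Skp2, a ubiquitin ligase subunit that acts on p27 and Myc, fell by 0.38 in KO and rose by 0.51 in CK, and Huwe1 rose in both, by 0.18 and 0.55. Of 19 genes of the Myc dimer network 4 rose and 2 fell in KO (31.6%), and 7 rose and 7 fell in CK (73.7%). In KO the Myc binding protein gene Mycbp rose by 0.56 and the Myc antagonist Mxd4 by 0.43, while the antagonist Mxi1 fell by 0.27 and Kat2a fell by 0.19. In CK the cofactor gene Trrap rose by 0.63 and Zbtb17 by 0.44, while Mycbp2 fell by 0.61 and Kat5 fell by 0.51.

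**Figure D3:**
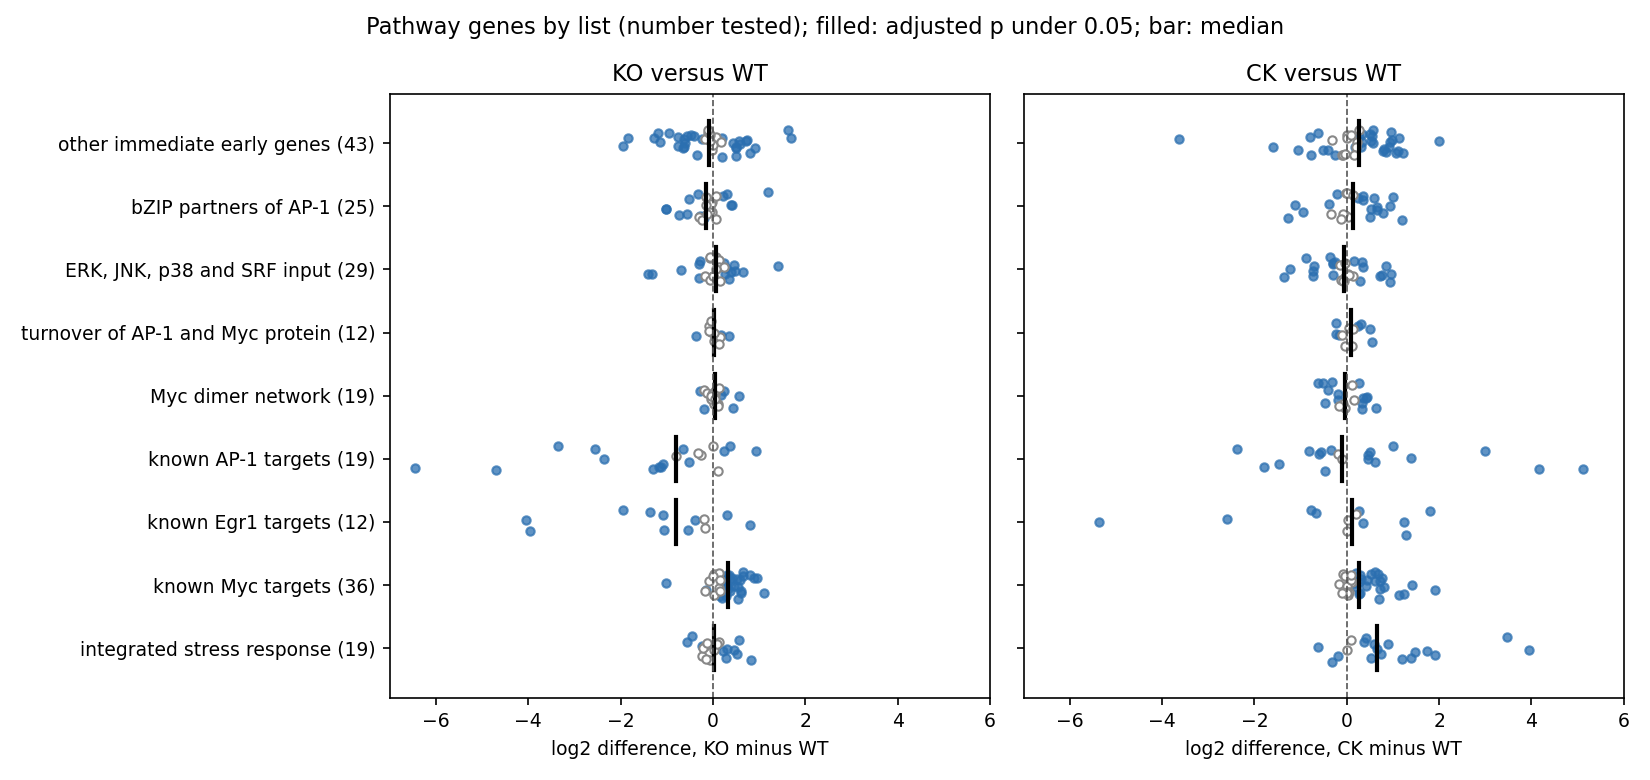
Log2 difference from WT (x axis) of each tested gene in 9 lists (y axis, number tested in brackets), for KO and CK, with filled points at an adjusted p under 0.05 and a bar at the median. The medians of known Myc targets lie above 0 in KO (0.32) and CK (0.28), and those of known AP-1 and Egr1 targets lie below 0 in KO (both -0.80), with single genes on the other side in each list.

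Of the known AP-1 targets tested, 11 of 19 fell in KO, and calls in CK went both ways. Of 25 genes with a probe set 19 were tested: 3 rose and 11 fell in KO (73.7% called, median -0.80, or -0.33 over all 25 without the filter), and 9 rose and 8 fell in CK (89.5%, median -0.10). Between the mutants 14 were higher and 2 lower in CK (84.2% against 62.2% of all genes, median 0.97, or 0.77 over all 25). Stromelysin, Mmp3, was at 6.69 in KO, against 13.13 in WT and 12.95 in CK, and the collagenase Mmp13 was at 12.90 in CK, against 7.79 in WT and 6.98 in KO. In CK Mmp10 rose by 4.17, while the growth factor gene Fgf7 fell by 2.38 and Sphk1 fell by 1.79. Fgf7 and Sphk1 were lower in KO as well, with differences from WT of -1.29 and -2.56. Not all targets were lower in KO: the urokinase gene Plau rose by 0.93 there. Genes high in 1 genotype passed the filter through it, so the filter and the counts over tested genes are not independent of the change.

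Of the known Egr1 targets tested, 8 of 12 fell in KO. Of 12 tested, 2 rose and 8 fell in KO (83.3% called, median -0.80), 5 rose and 4 fell in CK (75.0%, median 0.12), and 8 were higher and 4 lower in CK than in KO (100% called against 62.2% of all genes, median 1.13). Pdgfb, a growth factor gene, rose by 1.81 in CK and the VEGF receptor gene Flt1 by 1.29. Hpse, which cleaves heparan sulfate, fell by 4.04 in KO and fell by 5.37 in CK. The adhesion gene Icam1 fell by 3.96 in KO and fell by 2.60 in CK. Hpse and Icam1 were thus lower in CK, where Egr1 was higher, as well as in KO.

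Most known Myc targets passed the test as higher in each mutant. Of 36 tested, 25 rose and 2 fell in KO (75.0% called, median 0.32 against 0.01 over all genes), and 23 rose and 0 fell in CK (63.9%, median 0.28 against -0.01). Between the mutants 12 were higher and 9 lower in CK (58.3% called against 62.2% of all genes), with a median of 0.00. The transferrin receptor gene Tfrc rose by 1.10 in KO and 1.92 in CK, the snoRNP gene Nop58 rose by 0.96 in KO and Shmt2, of mitochondrial one-carbon metabolism, by 1.42 in CK. Ccnd2, the cyclin D2 gene, fell by 1.02 in KO, and Ldha fell by 0.16.

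The integrated stress response is the pathway through Atf4 that can induce Atf3, and most of its genes tested passed as higher in CK. Of 19 tested, 14 rose and 3 fell in CK (89.5% called, median 0.66), while 7 rose and 3 fell in KO (52.6%, median 0.03). Between the mutants 13 were higher and 1 lower in CK (73.7% against 62.2% of all genes, median 0.59). The cystine transporter gene Slc7a11 read 10.45 in CK, while 6.50 in WT and 6.63 in KO lie under the filter value. Chac1, which degrades glutathione, rose by 3.48 in CK and by 0.57 in KO. The asparagine synthetase gene Asns rose by 0.82 in KO, with means of 11.23 in WT, 13.14 in CK and 12.06 in KO. The lipoprotein receptor gene Vldlr fell in both, by 0.45 in KO and 0.63 in CK.

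The genes most like the 3 members with the widest range of genotype means were found by Pearson correlation over the 9 arrays, which here mostly reads the 3 genotype means. For Fosl1 they were Errfi1 (r = 0.996), an inhibitor of EGF receptors, the growth factor gene Pdgfd (0.993) and Bcl6b (0.992). Errfi1 was highest in CK (12.27), then WT (11.44) and KO (10.04). For Atf3 they were Zcwpw1 (0.998), Tnfrsf22 (0.997) and the Wnt ligand gene Wnt7b (0.997), each high in CK alone, with Wnt7b at 8.65 there against 7.19 in WT and 7.33 in KO. For Myc they were the G protein gene Gna14 (0.994), Zc3h18 (0.991) and Cobll1 (0.990), and Gna14 stood at 6.40 in WT, against 9.67 in CK and 9.39 in KO. Gna14 and Wnt7b in WT, and Pdgfd (6.81) and Bcl6b (6.99) in KO, lie under 7.24 and are not shown to be above background. A correlation of at least 0.9 was reached by 622 genes for Fosl1, 1106 for Atf3 and 422 for Myc of the 11962 tested, and says nothing of shared control.

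**Figure D4:**
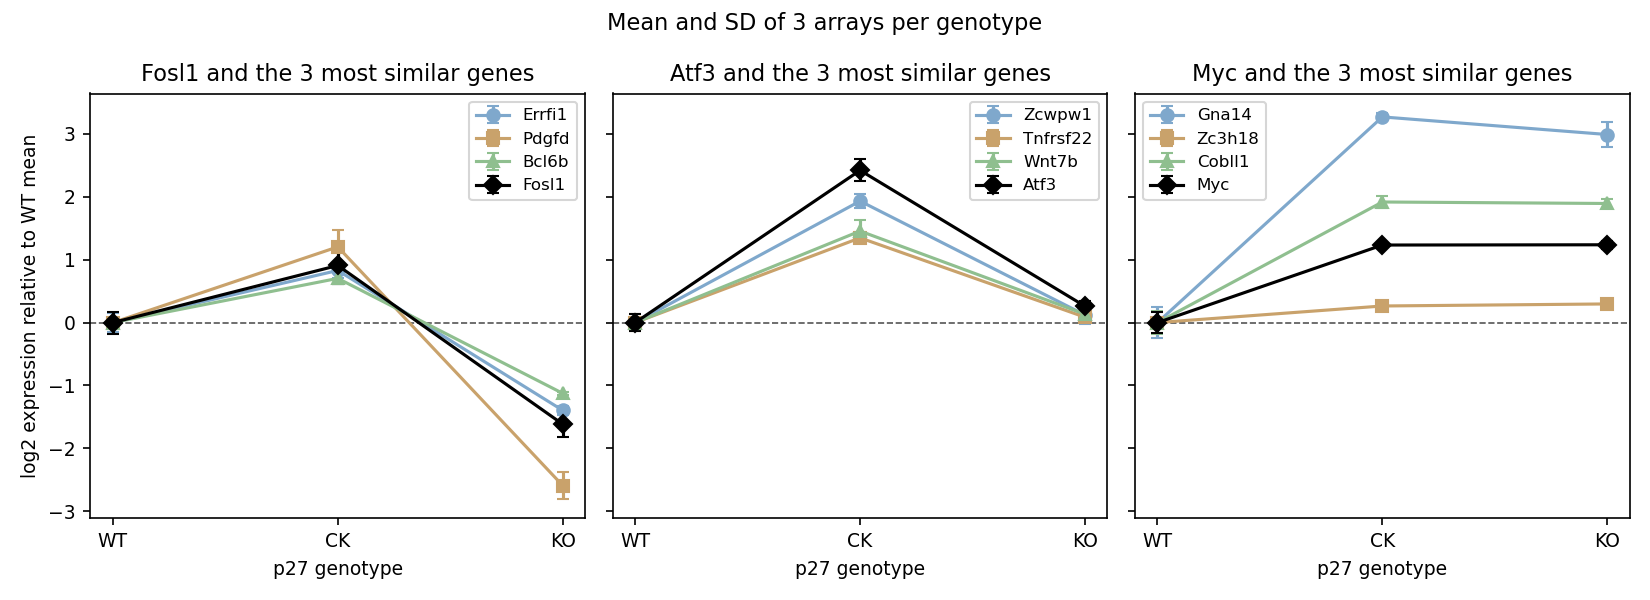
Log2 expression relative to the WT mean (y axis) in WT, CK and KO (x axis) for Fosl1, Atf3 and Myc (black) and the 3 genes most like each, as means and SD of 3 arrays. The genes share the shape and not the size: Gna14 stands at 9.67 in CK against 6.40 in WT, and Zc3h18 at 10.45 against 10.18.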

How the data were processed

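Total RNA of quiescent MEFs was labelled with biotin and measured on Affymetrix arrays, per the labels' protocols. For 34760 probe sets the deposited numbers are log2 values from RMA. The submitters' processing notes name RMA and affy as what the authors used, and versions are not given in the sources used here. RMA corrects background, normalizes quantiles between arrays and summarises probes, so a change in total RNA per cell would not be seen, and there are no detection calls.

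No deposited cell has a decimal mark: each is a string of 10 to 15 digits. The mark was put back after 2 digits where the string starts with 1 and after 1 digit elsewhere, giving 4.28 to 14.44. Had it always followed the first digit, strings with a leading 1 would end at 1.44 and the rest begin at 4.28, with a gap between them.

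Platform annotation gave 1 symbol to 21640 probe sets, several to 1321 and none to 11799; identifiers of 21553 matched RefSeq (GRCm38.p6). The brightest probe set of each gene was used. Those whose mean reached the 40th percentile went into limma (3.58.1, under R 4.3.3), which fitted all 9 arrays with a mean for each genotype, empirical Bayes variances and Benjamini-Hochberg adjustment over all 11962 genes (called at 0.05). The script was tested on simulated data. The number of arrays limits the precision; the median residual SD was 0.09. The members and lists were chosen with earlier results of these data known. Named list genes are up to 2 called in each direction with the largest difference, and 3 similar genes for the 3 members of widest range. Alternatives were other filters, probe set means, median centring, further quantile normalization, another variance model, 6 arrays, array weights, a replicate block, other thresholds and leaving out each array.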

Additional observations from a re-analysis of the deposited data

Results flagged for a closer look

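For 2 of the 10 genes the effects of the mutants had opposite directions. Fosl1 fell in KO (-1.61) and rose in CK (0.91), and the test of the difference itself gave 2.52 for CK minus KO (limma adjusted p = 1.61e-07). Egr1 fell in KO (-0.36) and rose in CK (0.79), with 1.15 for CK minus KO (limma adjusted p = 1.19e-06). In both genes all 3 CK arrays lay above and all 3 KO arrays below all 3 WT arrays. Both effects are measured against the same WT arrays. When each array was left out in turn, CK minus KO ran from 2.39 to 2.68 for Fosl1 and from 1.05 to 1.24 for Egr1. Dixon's test for outlying arrays was not run.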

How the results depend on the processing

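Several results kept their direction and their call in every alternative fit in which they were tested. They were Fosl1, Fosl2, Jund and Egr1 in all 3 comparisons, Myc in both comparisons with WT, and Atf3 in CK. Fos in KO versus WT and CK versus KO, and Fosb in KO versus WT, did so too. The stricter thresholds are not among these fits. Over the fits 508 values of the 10 genes kept both, 26 lost the call, 8 gained it and 16 changed sign, none of these 16 with a call. The counts of other settings given for single genes above are also of these fits. Asking for 1.5-fold as well left 2155 genes in KO versus WT, 3025 in CK versus WT and 3078 in CK versus KO, with 5 of the 10 genes in the first and 4 in the last. Among the calls lost there were Fosl2 (0.22) and Jund (0.31) in CK versus KO. Egr1 (-0.36) and Fosb (0.40) in KO versus WT were lost as well. A filter at the 60th percentile left 5 in CK versus KO, since Fos, Fosb, Junb and Atf3 were then not tested. Leaving out single arrays gave 5298 to 6227 genes in KO versus WT (7 to 9 of the 10), 6959 to 7630 in CK versus WT (6 to 8) and 6788 to 7523 in CK versus KO (6 to 8).

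Signs turned only for differences near 0. For CK minus WT, Jun was -0.0012 after further quantile normalization and Fos was -0.0658 with array weights. For CK minus KO, Myc was 0.0147 after further quantile normalization and 0.0178 with array weights. Without single arrays CK minus WT ran from -0.136 to 0.168 for Fos and from -0.0688 to 0.148 for Jun, and CK minus KO from -0.147 to 0.0523 for Junb and from -0.0320 to 0.0335 for Myc.

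A replicate block called 5979 genes (10 of the 10) in KO versus WT, 7377 (8) in CK versus WT and 7291 (7) in CK versus KO. Same-numbered arrays deviated together with r of 0.05, 0.25 and 0.36 in KO versus WT. The values were -0.03, -0.20 and -0.04 in CK versus WT, and 0.05, -0.30 and -0.09 in CK versus KO. In KO versus WT, arrays of different numbers gave -0.34 to 0.25. With 3 arrays a genotype these values cannot decide whether the numbers mark a shared batch. The deposited values carry no detection calls, so levels of Fos, Fosb and Atf3 near or under the filter are limited by background.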
